A study of Homo sapiens with 12 samples.

Results

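MHC class I molecules display peptides cut from proteins of the cell's own cytosol, so that CD8 T cells and natural killer cells can inspect them at the cell surface. HLA-B, HLA-C, HLA-E and HLA-F encode heavy chains, B2M encodes the light chain β2-microglobulin that each heavy chain needs, PSMB8 and PSMB9 encode interferon-inducible catalytic subunits of the immunoproteasome, TAP1 encodes one chain of the peptide transporter of the endoplasmic reticulum, and NLRC5 encodes the transactivator of the class I promoters. These 9 genes were chosen by name for their role, with earlier results of these data known, out of 58051 gene identifiers counted, and each was found as 1 identifier. In tumors the pathway is known as a target of interferon signaling and as a frequent site of lowered expression.

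The genes were followed in FaDu cells, a line from a hypopharyngeal squamous cell carcinoma, and in Cal27 cells, from a squamous cell carcinoma of the tongue. Each line was sequenced as parental cells, as cells selected for resistance to afatinib, an irreversible inhibitor of the ERBB receptors (AfaR), and as cells selected for resistance to erlotinib, a reversible EGFR inhibitor (ErlR). There were 2 biological replicates in each of the 6 groups, 12 libraries in all, and every group is labelled wild type. The resistant cells had been kept in stepwise rising doses and were grown for a day without drug before use. Each resistant model is therefore 1 selected population, its 2 replicates measure the spread of that population only, and an effect of selection cannot be told apart from what is left of drug exposure. The labels do not name a drug treatment for the parental cells.

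Counts on genes lay between 16334937 and 23399259 per library, and all 9 genes passed the filter on low counts in each line. Levels below are in CPM, a gene's counts relative to the library total after one TMM scaling of the 12 libraries, and are given as replicate 1 and then replicate 2. Fold changes are log2 values, fitted in the 6 libraries of the line by edgeR's quasi-likelihood method. Their standard error (SE) is the size of the fold change divided by the square root of the F statistic of its test. It is unreliable for changes near 0. A gene passed at a Benjamini-Hochberg adjusted p under 0.05 over every gene tested. The labelled cell type was checked with marker genes. The 8 leukocyte markers summed to between 12.5 and 20.4 CPM in every group, with no count of CD3E in 11 of 12 libraries and PTPRC between 1.73 and 3.69 CPM. The 7 squamous epithelial markers summed to between 3829 and 12882 CPM in 5 groups and to between 877.0 and 975.1 CPM in Cal27 AfaR, where 6 of 7 fell (log2 fold changes of -7.24 for KRT14 and -3.41 for TP63). Of the 5 fibroblast markers tested in Cal27 AfaR, 3 rose (COL1A1, LUM and PDGFRB) and 0 fell. The 7 fibroblast markers summed to between 314.8 and 326.5 CPM there, mostly from COL1A1 (265.7 and 273.1), and to at most 41.6 CPM elsewhere. In Cal27 ErlR this sum was between 5.30 and 10.5 CPM against 30.1 and 41.6 in parental cells, and 3 of the 5 fibroblast markers tested fell (COL1A1 by 2.41, PDGFRB by 2.39 and COL1A2 by 1.51). Of the squamous markers, 3 of 7 fell in Cal27 ErlR, among them KRT14 (by 3.19) and KRT17 (by 1.13), and 1 rose (TP63, by 0.75). Of the 4 leukocyte markers tested in Cal27, CD68 fell in AfaR (by 1.11) and ErlR (by 1.31). In FaDu AfaR 1 of 7 squamous markers rose and 1 fell, and no other marker passed in either FaDu model. The part of these marker differences in the results below was not tested. In a bulk library, a change in the number of cells that use a gene cannot be told apart from a change in RNA per cell.

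The class I promoters are known for 2 elements, the interferon-stimulated response element (ISRE) and the SXY module bound by RFX, CREB/ATF and NF-Y factors together with NLRC5. Promoter sequence is shown here for 5 of the genes, each with a match to a short ISRE core in the stretch printed. PSMB9 had no such match, and those of PSMB8 lie outside that stretch. The sequences are RefSeq windows on GRCh38.p14 from 200 to 99 bases before the annotated start, written 5′ to 3′ along the gene's strand. Capitals mark matches on either strand to AANNGAAA, a short ISRE core, or to TGACGCG, the CRE-like X2 site of the SXY module.
HLA-B: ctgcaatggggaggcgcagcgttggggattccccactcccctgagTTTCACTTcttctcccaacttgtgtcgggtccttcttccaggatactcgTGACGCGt
HLA-C: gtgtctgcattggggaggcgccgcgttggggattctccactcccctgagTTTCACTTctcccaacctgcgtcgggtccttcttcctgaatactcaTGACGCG
HLA-F: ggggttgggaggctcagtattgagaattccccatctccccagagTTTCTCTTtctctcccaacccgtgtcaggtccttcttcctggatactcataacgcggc
B2M: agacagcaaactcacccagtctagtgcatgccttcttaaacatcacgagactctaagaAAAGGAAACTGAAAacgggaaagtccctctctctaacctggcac
TAP1: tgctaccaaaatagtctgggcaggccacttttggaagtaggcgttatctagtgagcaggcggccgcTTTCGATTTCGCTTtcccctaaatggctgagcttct
The windows lie at chr6:31357278-31357379 (HLA-B, minus strand), chr6:31272191-31272292 (HLA-C, minus), chr6:29723234-29723335 (HLA-F, plus), chr15:44711317-44711418 (B2M, plus) and chr6:32853803-32853904 (TAP1, minus). The table of promoters held 7 of the 9 genes, without HLA-E and NLRC5, with 2 starts each for TAP1 and PSMB8, and a gene was counted where any of its windows held the match. In the full windows of 300 bases, from 250 before to 50 after the start, AANNGAAA was found in 6 of these 7 genes against 22.9% of 34943 promoter windows, and the longer core with GA directly before these letters in 4 (HLA-F, B2M, TAP1 and PSMB8) against 3.57%. Every match to the longer core thus holds the shorter one. TGACGCG was found in HLA-B and HLA-C, against 2.38% of windows, and CCAAT, the NF-Y motif, in 6 genes against 34.6%. These are matches of letters and not measured binding sites.

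The genes are spread over 3 chromosomes. In the coordinates of the deposited GRCh38 files, HLA-F (29722775 to 29738528), HLA-E (30489467 to 30494205), HLA-C (31268749 to 31272130), HLA-B (31353872 to 31357188), PSMB8 (32840717 to 32844703), PSMB9 (32844136 to 32859585) and TAP1 (32845209 to 32853978) lie on chromosome 6. B2M lies on chromosome 15 (44711477 to 44718877) and NLRC5 on chromosome 16 (56989485 to 57083531). Counts covered whole genes, all exons and untranslated regions included. Exon sequence shared with genes of the opposite strand made up 28.5% of HLA-F, 21.2% of PSMB8, 18.0% of HLA-B and 9.96% of TAP1. Since the strand setting of the counting is not given in the sources used here, reads of these stretches cannot be told apart from those of the partner genes, which for TAP1 and PSMB8 is PSMB8-AS1. PSMB9 shared 5.66% of its exon sequence with PSMB8-AS1 too, but on the same strand, where no strand setting would separate the reads. The heavy-chain genes are near-identical in long stretches, and reads that fit several of them could have been split or dropped.

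In FaDu AfaR, 6 of the 9 genes were higher than in parental cells and 0 lower, where 17.9% of 15092 genes passed, 10.4% higher and 7.49% lower. In FaDu ErlR, 0 of 9 passed, where 4.18% of genes did, 2.58% higher and 1.60% lower. By unadjusted p under 0.05 the count in FaDu ErlR was 3 (HLA-B, HLA-C and HLA-E, all higher), and DESeq2 also gave 0. Scaling by the ERCC spike-ins, which raised the median of all genes by 0.49 there, gave 5 (HLA-B, HLA-C, HLA-E, B2M and PSMB8). In Cal27 AfaR, 5 of 9 were higher and 0 lower, against 37.6% of 15269 genes, 19.5% higher and 18.2% lower. In Cal27 ErlR, 8 of 9 were lower and 0 higher, against 27.6% of genes, 12.3% higher and 15.3% lower. The median log2 fold change of the 9 genes was 0.77 in AfaR and 0.10 in ErlR cells of FaDu, beside 0.00 and 0.00 over all genes tested. Those of Cal27 were 0.61 in AfaR and -1.12 in ErlR cells, beside 0.00 and -0.03. Both resistant models of a line were compared with the same 2 parental libraries. With a log2 fold change over 1 in size required as well, the 4 counts were 3, 0, 2 and 5. The shares above hold for edgeR with TMM scaling and an adjusted p under 0.05. Shares over all genes under the other rules and scalings are not given, so those counts have no share beside them.

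**Figure D1:**
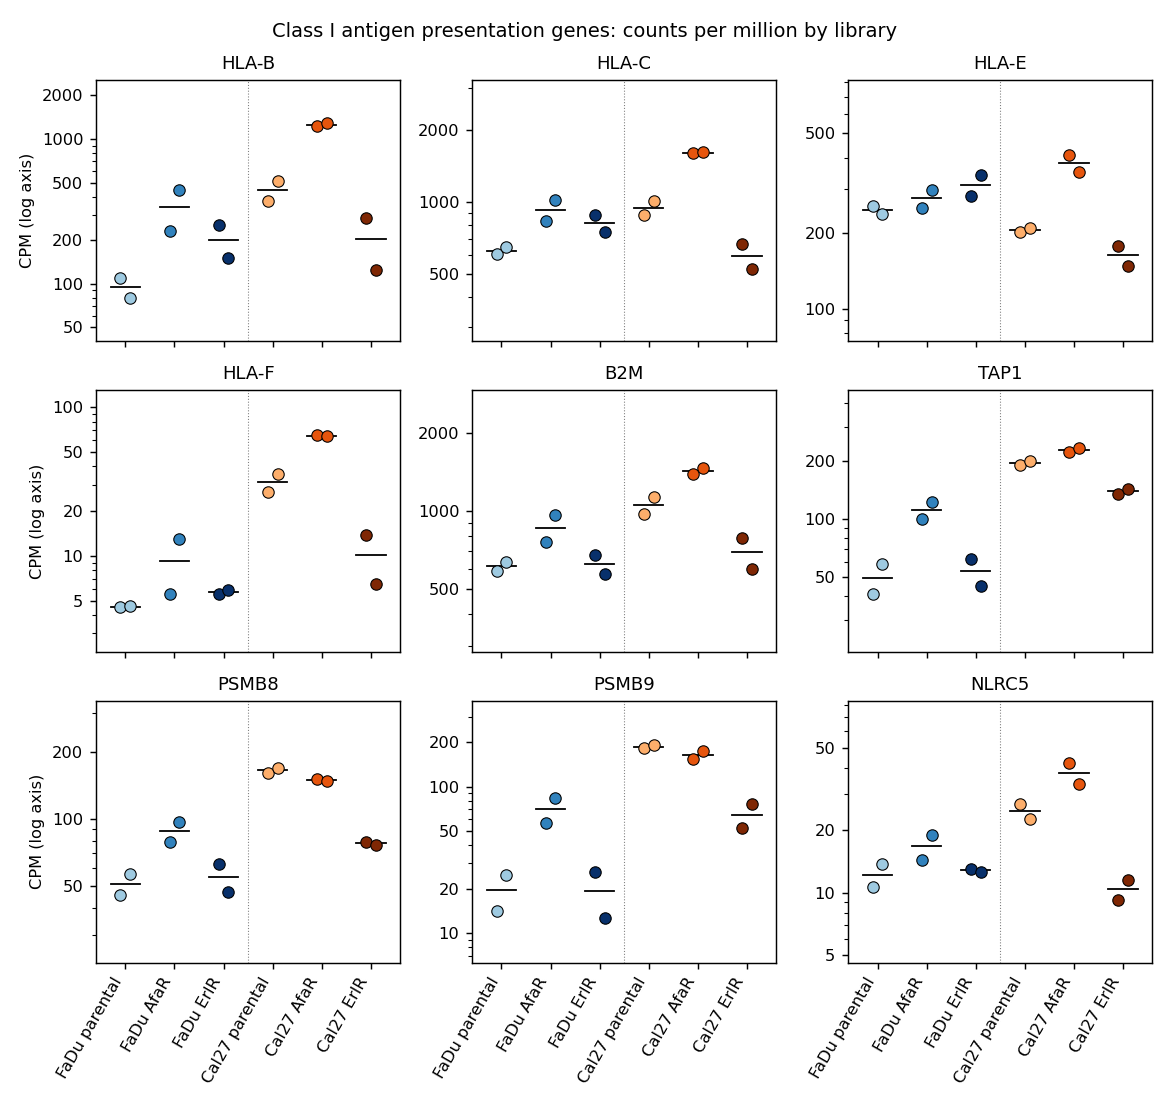
CPM of the 9 genes in each of the 12 libraries (points), with the group mean as a bar, on a log axis that differs between panels. In Cal27 the 3 groups do not overlap for any of the 9 genes, with ErlR lowest throughout. The share of all genes with such separation was not counted, so whether the 9 genes stand out by it cannot be said. By adjusted p, a different measure, 49.6% of all genes passed between Cal27 AfaR and ErlR. In FaDu the AfaR libraries are the highest for B2M, TAP1, PSMB8, PSMB9 and NLRC5, and overlap those of ErlR for the heavy chains.

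HLA-B, a classical heavy chain that presents peptides to CD8 T cells, had among the largest changes. In FaDu it stood at 110.0 and 80.1 CPM in parental cells, 231.4 and 441.0 in AfaR and 252.6 and 150.0 in ErlR. All 4 resistant libraries lay above both parental ones, and the AfaR and ErlR libraries overlapped. HLA-B rose in FaDu AfaR by 1.80 (SE 0.318, adjusted p = 0.00904). The value of 1.07 in FaDu ErlR (SE 0.314) missed the threshold with an adjusted p of 0.0898, and passed with 0.0489 or 0.0486 when FaDu AfaR replicate 1 or 2 was left out of the fit. In Cal27 the levels were 370.2 and 515.4 CPM in parental cells, 1227 and 1281 in AfaR and 285.3 and 124.2 in ErlR. These 3 groups did not overlap, with AfaR highest and ErlR lowest. HLA-B rose by 1.50 in Cal27 AfaR (SE 0.325, adjusted p = 0.00597) and fell by 1.14 in Cal27 ErlR (SE 0.323, adjusted p = 0.0284). The fall was lost with DESeq2, with an adjusted p of 0.104.

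HLA-C, the other classical heavy chain measured, is known as a main ligand of killer-cell immunoglobulin-like receptors. FaDu cells had 604.0 and 646.1 CPM of it in parental, 835.1 and 1019 in AfaR and 881.6 and 752.3 in ErlR libraries. Again all 4 resistant libraries exceeded the parental ones. HLA-C rose by 0.55 in FaDu AfaR (SE 0.129, adjusted p = 0.0227) and had 0.37 in FaDu ErlR (SE 0.129, adjusted p = 0.135). Cal27 cells had 884.4 and 1007 CPM in parental, 1595 and 1620 in AfaR and 670.0 and 524.2 in ErlR libraries, again without overlap. HLA-C rose by 0.77 in Cal27 AfaR (SE 0.157, adjusted p = 0.00456) and fell by 0.69 in Cal27 ErlR (SE 0.157, adjusted p = 0.0114). Its changes were smaller on the log2 scale than those of HLA-B in each of the 4 comparisons, a difference between genes that was not tested.

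HLA-E, a nonclassical heavy chain read by the NKG2A and NKG2C receptors of natural killer cells, had the smallest change of the 9 in FaDu AfaR. Its levels were 257.8 and 239.3 CPM in parental cells, 253.0 and 298.6 in AfaR and 282.6 and 342.0 in ErlR. The AfaR libraries overlapped the parental ones and the ErlR libraries lay just above them. Neither difference passed, with log2 fold changes of 0.13 (adjusted p = 0.499) and 0.32 (adjusted p = 0.193). In Cal27, HLA-E had 202.5 and 210.1 CPM in parental cells, 409.5 and 352.0 in AfaR and 178.5 and 148.4 in ErlR. It rose by 0.89 in Cal27 AfaR (SE 0.144, adjusted p = 0.00139). Both ErlR libraries were below the parental ones, but HLA-E was the one gene of the 9 that did not pass there (log2 fold change -0.36, adjusted p = 0.0906).

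HLA-F, a nonclassical heavy chain of low abundance, gave 4.51 and 4.57 CPM in FaDu parental, 5.53 and 13.0 in AfaR and 5.56 and 5.88 in ErlR libraries. FaDu AfaR replicate 2 stood far above its partner. The log2 fold change of 1.01 in FaDu AfaR (SE 0.359, adjusted p = 0.0786) missed the threshold and passed with DESeq2 (adjusted p = 0.0481). In Cal27, HLA-F had 26.9 and 35.6 CPM in parental cells, 65.0 and 63.6 in AfaR and 13.8 and 6.48 in ErlR. It rose by 1.04 in Cal27 AfaR (SE 0.275, adjusted p = 0.0151) and had the largest fall of the 9 genes in Cal27 ErlR, by 1.65 (SE 0.295, adjusted p = 0.00371).

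B2M, the light chain shared by the class I heavy chains, changed less than HLA-B. FaDu libraries held 589.0 and 633.8 CPM in parental cells, 758.2 and 964.2 in AfaR and 675.8 and 570.8 in ErlR. Only the AfaR pair stood clear of the parental pair. B2M rose by 0.47 in FaDu AfaR (SE 0.138, adjusted p = 0.0438), a call that was lost in the fit of 12 libraries (adjusted p = 0.0523), and was at 0.02 in FaDu ErlR (adjusted p = 0.965). In Cal27 it had 977.0 and 1135 CPM in parental cells, 1392 and 1469 in AfaR and 786.2 and 598.6 in ErlR. The 3 groups did not overlap, and the difference of 0.44 in Cal27 AfaR missed the threshold (SE 0.164, adjusted p = 0.0611) while passing with DESeq2 (adjusted p = 0.0337). B2M fell by 0.63 in Cal27 ErlR (SE 0.164, adjusted p = 0.0197).

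TAP1 pairs with TAP2 to carry peptides into the endoplasmic reticulum. In FaDu it went from 41.1 and 58.7 CPM in parental cells to 100.1 and 123.1 in AfaR, with 62.7 and 44.9 in ErlR. The AfaR pair was clear of the other 4 libraries. TAP1 rose by 1.14 in FaDu AfaR (SE 0.206, adjusted p = 0.00962), and the value in FaDu ErlR was 0.10 (adjusted p = 0.842). In Cal27 it had 191.1 and 201.4 CPM in parental cells, 223.1 and 233.6 in AfaR and 136.2 and 144.2 in ErlR. The difference of 0.22 in Cal27 AfaR did not pass (SE 0.120, adjusted p = 0.177), although both libraries were above the parental ones, and TAP1 fell by 0.51 in Cal27 ErlR (SE 0.120, adjusted p = 0.0133), which was lost in the fit of 12 libraries (adjusted p = 0.0587).

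PSMB8, which replaces the constitutive subunit PSMB5 in the immunoproteasome, separated the AfaR models of the lines. FaDu had 45.3 and 56.4 CPM in parental cells, 79.0 and 97.0 in AfaR and 62.8 and 47.1 in ErlR, and PSMB8 rose in FaDu AfaR by 0.77 (SE 0.174, adjusted p = 0.0196). In FaDu ErlR its log2 fold change was 0.10 (adjusted p = 0.806). Cal27 had 161.2 and 169.5 CPM in parental cells, 150.7 and 148.5 in AfaR and 78.8 and 76.6 in ErlR. The AfaR libraries were slightly below the parental ones (log2 fold change -0.14, adjusted p = 0.365), and PSMB8 fell by 1.12 in Cal27 ErlR (SE 0.119, adjusted p = 0.000360).

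PSMB9, which replaces PSMB6, had larger log2 fold changes than PSMB8 in FaDu AfaR and Cal27 ErlR, a difference between the genes that was not tested. It stood at 14.2 and 24.9 CPM in FaDu parental cells, at 56.8 and 83.2 in AfaR and at 26.2 and 12.6 in ErlR. PSMB9 rose by 1.82 in FaDu AfaR (SE 0.350, adjusted p = 0.0116), the largest rise among the 9 genes there, and was at -0.02 in FaDu ErlR (adjusted p = 0.982), where the 2 libraries lay on either side of the parental pair. Cal27 had 182.9 and 191.8 CPM in parental cells, 153.3 and 174.8 in AfaR and 52.5 and 76.2 in ErlR. The value in Cal27 AfaR was -0.19 (SE 0.173, adjusted p = 0.416), and PSMB9 fell by 1.57 in Cal27 ErlR (SE 0.179, adjusted p = 0.000487).

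NLRC5, the transactivator, had the lowest group mean of the 9 in CPM per kb of exon, in FaDu parental cells within the spread between libraries from HLA-F. It had 10.6 and 13.8 CPM in FaDu parental cells, 14.4 and 19.0 in AfaR and 13.0 and 12.6 in ErlR, and neither difference passed (0.44 in AfaR with an adjusted p of 0.151, 0.06 in ErlR with 0.909). In Cal27 it had 26.7 and 22.6 CPM in parental cells, 42.0 and 33.3 in AfaR and 9.20 and 11.5 in ErlR. These 3 groups were ordered as for the heavy chains. NLRC5 rose by 0.61 in Cal27 AfaR (SE 0.184, adjusted p = 0.0270) and fell by 1.27 in Cal27 ErlR (SE 0.195, adjusted p = 0.00186).

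**Figure D2:**
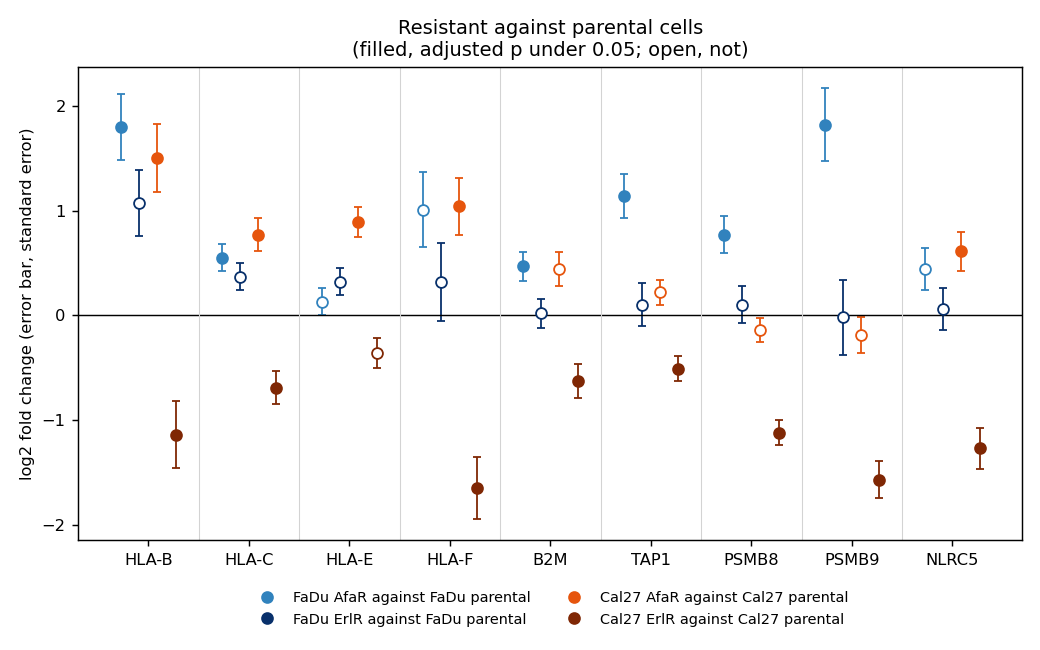
Log2 fold change of each gene in each resistant model against the parental cells of its line, with the standard error as a bar. Filled points passed at an adjusted p under 0.05. In Cal27 AfaR the 4 heavy chains and NLRC5 are filled and TAP1, PSMB8 and PSMB9 are open near 0, whereas in FaDu AfaR the latter 3 are filled at 0.77 to 1.82.

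With 2 libraries per group, single libraries decided several of these calls. In FaDu AfaR, replicate 2 had the higher value of the pair for all 9 genes. Without that library, and likewise without FaDu parental replicate 1, HLA-B alone of the 9 passed. The values of the others without FaDu AfaR replicate 2 were 0.40 for HLA-C, 0.30 for B2M, 0.99 for TAP1, 0.62 for PSMB8 and 1.52 for PSMB9, all in the same direction. Without FaDu parental replicate 1 they were 0.49, 0.41, 0.90, 0.61 and 1.46. Without FaDu parental replicate 2, TAP1, PSMB8 and PSMB9 passed and HLA-B (1.59), HLA-C (0.59) and B2M (0.52) did not, and without FaDu AfaR replicate 1 HLA-F passed too (1.49), for 7 genes. The value of HLA-F without FaDu AfaR replicate 2 was 0.27.

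In Cal27 AfaR, HLA-B, HLA-C and HLA-E passed whichever library was left out. HLA-F missed the threshold without Cal27 parental replicate 1 (0.86), without AfaR replicate 1 (1.03) and without AfaR replicate 2 (1.08), and NLRC5 missed it without parental replicate 2 (0.50) or AfaR replicate 1 (0.43). The count was 3 without AfaR replicate 1, and 6, with B2M at 0.44, without either ErlR library. In Cal27 ErlR, HLA-F, PSMB8, PSMB9 and NLRC5 passed whichever library was left out. The count fell to 4 without Cal27 parental replicate 2, where HLA-B (-0.86), HLA-C (-0.57), B2M (-0.50) and TAP1 (-0.46) missed the threshold, and to 5 without Cal27 ErlR replicate 2, where HLA-B (-0.63), HLA-C (-0.49) and B2M (-0.42) did. HLA-B also missed it without Cal27 AfaR replicate 1 (-1.13) or replicate 2 (-1.12), and TAP1 without ErlR replicate 1 (-0.46).

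The models of one line were also compared with each other. In Cal27 all 9 genes were higher in AfaR than in ErlR, where 49.6% of genes passed, 26.5% higher and 23.2% lower in AfaR. The differences ran from 0.73 for TAP1 (SE 0.121, adjusted p = 0.00100) to 2.69 for HLA-F (SE 0.298, adjusted p = 0.000107), with 2.64 for HLA-B. All 9 passed with each library left out. In FaDu, 3 of 9 were higher in AfaR than in ErlR and 0 lower, against 15.7% of genes, 8.06% higher and 7.65% lower. These were PSMB9 (1.84, SE 0.353, adjusted p = 0.0111), TAP1 (1.05, SE 0.206, adjusted p = 0.0122) and PSMB8 (0.67, SE 0.175, adjusted p = 0.0327). All 3 calls were lost without FaDu AfaR replicate 2 (1.55, 0.89 and 0.52 in that order) or without FaDu ErlR replicate 2 (1.40, 0.82 and 0.47), and without FaDu AfaR replicate 1 HLA-B (1.12), HLA-F (1.17) and B2M (0.62) passed as well. With ERCC scaling, which shifted the median of all genes by -0.29, PSMB8 was at 0.35 (adjusted p = 0.228) and HLA-E was lower in AfaR than in ErlR (-0.48, adjusted p = 0.0279).

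Whether a resistance effect differed between the lines was tested as an interaction over the 12 libraries, as the change in FaDu minus the change in Cal27. For AfaR, 4 of 9 genes passed, where 18.6% of 16240 genes did, 10.5% with the higher change in FaDu and 8.00% in Cal27. The change was larger in FaDu for PSMB9 (2.04, SE 0.442, adjusted p = 0.00716), PSMB8 (0.94, SE 0.217, adjusted p = 0.0103) and TAP1 (0.94, SE 0.254, adjusted p = 0.0219), and larger in Cal27 for HLA-E (-0.73, SE 0.196, adjusted p = 0.0212). No difference between the lines passed for HLA-B (0.32, SE 0.525), HLA-C (-0.20, SE 0.205), HLA-F (0.00), B2M (0.06, SE 0.222) and NLRC5 (-0.15, SE 0.282). This does not show that the lines responded alike. PSMB9 passed whichever library was left out. Without FaDu parental replicate 1 it was the only one, with 0.71 for TAP1, 0.79 for PSMB8 and -0.68 for HLA-E. TAP1 also missed the threshold without FaDu AfaR replicate 2 (0.80), Cal27 parental replicate 2 (0.91) or either Cal27 AfaR replicate (0.91 and 0.98). HLA-E also missed it without FaDu AfaR replicate 1 (-0.61), Cal27 parental replicate 1 (-0.70) or Cal27 AfaR replicate 1 (-0.62), and with ERCC scaling (-0.58, adjusted p = 0.0851), so that 2 genes passed without Cal27 AfaR replicate 1.

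For ErlR, 7 of 9 genes passed, each with a higher value in FaDu, where again 18.6% of genes passed, 9.80% in that direction and 8.80% in the other. The differences were 2.19 for HLA-B (SE 0.533, adjusted p = 0.0141), 1.96 for HLA-F (SE 0.532, adjusted p = 0.0236), 1.53 for PSMB9 (SE 0.452, adjusted p = 0.0335), 1.32 for NLRC5 (SE 0.292, adjusted p = 0.00897), 1.20 for PSMB8 (SE 0.219, adjusted p = 0.00337), 1.05 for HLA-C (SE 0.206, adjusted p = 0.00488) and 0.67 for HLA-E (SE 0.196, adjusted p = 0.0335). B2M (0.64, adjusted p = 0.0653) and TAP1 (0.59, adjusted p = 0.126) did not pass. HLA-C, PSMB8 and NLRC5 passed whichever library was left out. HLA-B missed the threshold without FaDu parental replicate 2 (1.98) or FaDu ErlR replicate 1 (1.77). HLA-F missed it without any one of the 4 FaDu parental and ErlR libraries (1.92 to 1.99), without Cal27 parental replicate 2 (1.74) or without Cal27 ErlR replicate 2 (1.51). HLA-E missed it without either FaDu parental replicate (0.72 and 0.61), FaDu ErlR replicate 2 (0.52), either Cal27 parental replicate (0.69 and 0.64) or Cal27 ErlR replicate 2 (0.54). PSMB9 missed it without FaDu parental replicate 1 (1.19), FaDu ErlR replicate 1 (0.91), either Cal27 parental replicate (1.57 and 1.50) or Cal27 ErlR replicate 1 (1.31), and with DESeq2 (adjusted p = 0.0548). B2M passed without Cal27 ErlR replicate 1 (0.86) and TAP1 without FaDu parental replicate 2 (0.87), and the count was lowest, at 4, without FaDu parental replicate 1, FaDu ErlR replicate 1 or Cal27 parental replicate 2.

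Parental cells differed as well. In Cal27 parental cells 8 of 9 genes were higher than in FaDu parental cells and 0 lower, where 55.6% of genes passed, 28.7% higher and 26.8% lower. PSMB9 differed most (3.26, SE 0.338), followed by HLA-F (2.78, SE 0.377), HLA-B (2.22, SE 0.389), TAP1 (1.98, SE 0.186), PSMB8 (1.70, SE 0.157), NLRC5 (1.02, SE 0.203), B2M (0.79, SE 0.158) and HLA-C (0.60, SE 0.146), with adjusted p-values up to 0.00384. HLA-E was at -0.27 (adjusted p = 0.117). The lines were grown in different media and carry their own HLA alleles, and reads of an allele far from the reference may be lost in alignment, so that for the heavy chains expression and alignment cannot be told apart between lines. Comparisons within a line share the alleles unless one was lost in selection.

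On the scale of CPM per kb of exon, which allows genes to be compared, HLA-C was the highest of the 9 genes in each group, with 249.3 ± 11.9 (SD, n = 2) in FaDu parental and 377.2 ± 34.5 in Cal27 parental cells. B2M came next, with 100.4 ± 5.20 and 173.4 ± 18.3, apart from Cal27 AfaR, where HLA-B stood at 416.4 ± 12.7 and B2M at 234.9 ± 8.87, and FaDu ErlR, where HLA-E at 105.0 ± 14.1 and B2M at 102.4 ± 12.2 did not differ beyond their spread. The length is that of all annotated exons, 6089 bases for B2M, and understates a gene whose longer exons are rarely used. In FaDu parental cells the order continued with HLA-E (83.5 ± 4.39), HLA-B (31.6 ± 7.02), PSMB8 (25.4 ± 3.90), TAP1 (10.9 ± 2.72), PSMB9 (6.36 ± 2.47), HLA-F (1.05 ± 0.00969) and NLRC5 (0.983 ± 0.182), of which HLA-B and PSMB8, and HLA-F and NLRC5, did not differ beyond their spread. In Cal27 parental cells it was HLA-B (147.0 ± 34.1), PSMB8 (82.4 ± 2.90), HLA-E (69.4 ± 1.81), PSMB9 (61.0 ± 2.05), TAP1 (42.9 ± 1.60), HLA-F (7.19 ± 1.42) and NLRC5 (1.99 ± 0.237), where B2M and HLA-B did not differ beyond their spread.

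Ratios of 2 genes within a library are free of the scaling between libraries, and are given per kb and without a test. PSMB9 over PSMB6, the subunit it replaces, was 0.0402 and 0.0609 in FaDu parental, 0.152 and 0.308 in AfaR and 0.0698 and 0.0334 in ErlR libraries. It was 0.500 and 0.604 in Cal27 parental, 0.616 and 0.555 in AfaR and 0.241 and 0.316 in ErlR libraries. The ratio was thus above both parental values in both FaDu AfaR libraries and below them in both Cal27 ErlR libraries. PSMB8 over PSMB5 went the same way, from 0.227 and 0.255 to 0.345 and 0.468 in FaDu AfaR, and from 0.904 and 1.01 to 0.356 and 0.367 in Cal27 ErlR. In Cal27 AfaR it was 1.15 and 0.944, of which the lower lay between the parental values.

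HLA-B over HLA-C was 0.152 and 0.103 in FaDu parental, 0.231 and 0.360 in AfaR and 0.238 and 0.166 in ErlR libraries, so that all 4 resistant libraries lay above the parental ones. In Cal27 it was 0.348 and 0.426 in parental and 0.640 and 0.658 in AfaR libraries, with 0.354 and 0.197 in ErlR. TAP1 over TAP2 was 0.827 and 0.983 in FaDu parental and 1.50 and 1.88 in AfaR libraries. It was 2.18 and 2.58 in Cal27 parental, 4.18 and 4.57 in AfaR and 1.48 and 1.75 in ErlR libraries. In Cal27 AfaR the higher ratio went with a fall of TAP2 by 0.66 (adjusted p = 0.00347), from 122.4 and 109.0 to 74.6 and 71.3 CPM.

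**Figure D3:**
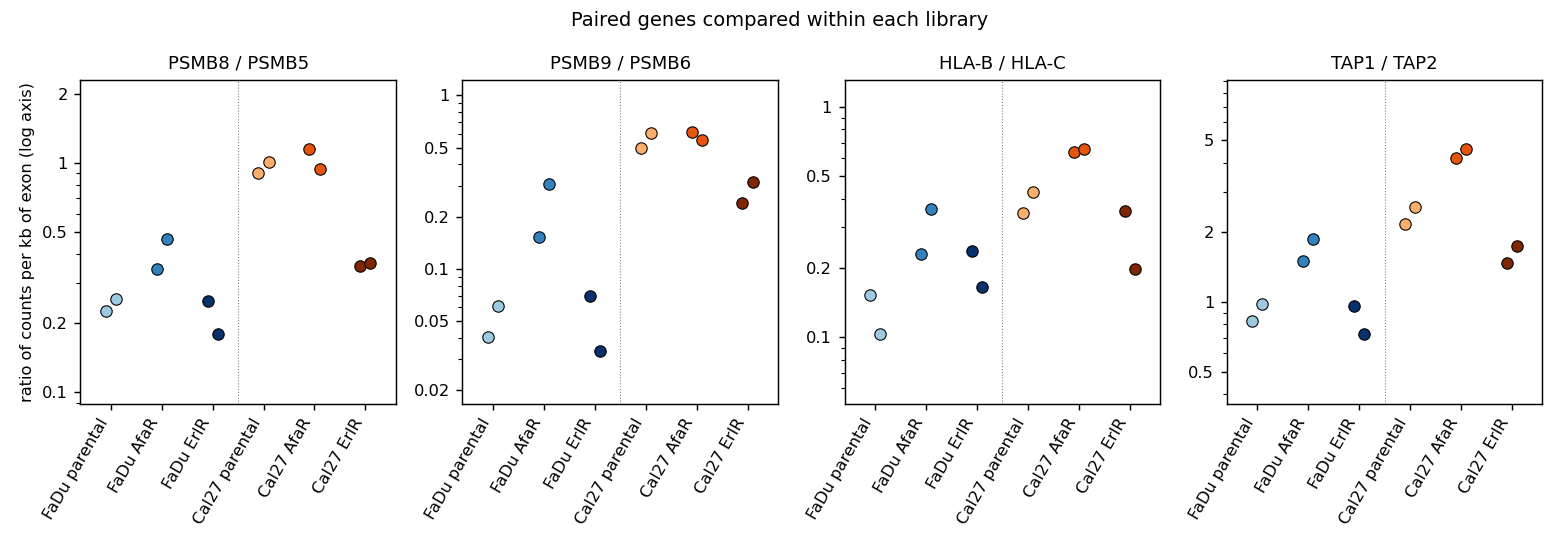
Ratios of 4 gene pairs within each library, per kb of exon and on a log axis. The immunoproteasome pairs PSMB8/PSMB5 and PSMB9/PSMB6 are raised in FaDu AfaR, lowered in Cal27 ErlR and near the parental values in Cal27 AfaR, where HLA-B/HLA-C and TAP1/TAP2 are the highest of the 6 groups.

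Other genes of the pathway were read from lists written with earlier results of these data known. Their counts stand beside shares over all genes of 10.4% higher and 7.49% lower in FaDu AfaR, 2.58% and 1.60% in FaDu ErlR, 19.5% and 18.2% in Cal27 AfaR and 12.3% and 15.3% in Cal27 ErlR. Of the 3 other genes of the immunoproteasome and its PA28 cap, PSME2 rose in FaDu AfaR (by 0.46), 0 passed in the ErlR cells of FaDu and the AfaR cells of Cal27, and 3 of 3 fell in Cal27 ErlR. PSMB10, the third inducible subunit, fell there by 2.09 (SE 0.178, adjusted p = 0.000106), from 61.3 and 79.6 to 14.9 and 18.8 CPM, and PSME1 by 1.20 and PSME2 by 0.77. In FaDu AfaR the PSMB10 libraries stood at 29.4 and 54.1 CPM against 24.2 and 29.4 in parental cells (0.62, adjusted p = 0.107). The constitutive catalytic subunits PSMB5, PSMB6 and PSMB7 passed in 0 of 3 cases in each FaDu model and in Cal27 AfaR, and in Cal27 ErlR PSMB6 fell by 0.60 and PSMB7 by 0.57 while PSMB5 was at 0.28 (adjusted p = 0.139). Of the 11 other subunits of the 20S core, 0 rose and 7 fell in FaDu AfaR (PSMA3 by 0.54), 0 passed in FaDu ErlR, 0 rose and 4 fell in Cal27 AfaR (PSMA1 by 0.75), and 2 rose and 1 fell in Cal27 ErlR. PSMB8 and PSMB9 thus rose in FaDu AfaR in the libraries in which 7 of these 11 subunits fell.

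Of the 8 other genes of peptide loading, which trim, carry and fit peptides in the endoplasmic reticulum, 2 rose in FaDu AfaR, ERAP1 by 0.93 and TAPBPL by 0.86. FaDu ErlR had 0. In Cal27 AfaR, TAPBPL rose by 1.11 and TAP2 fell. In Cal27 ErlR 4 fell, among them TAPBP, which tethers empty class I molecules to TAP, by 1.27 (adjusted p = 0.000744), ERAP2 by 1.07 and ERAP1 by 0.98. TAPBP had 447.5 and 585.6 CPM in Cal27 parental and 207.3 and 228.1 in ErlR libraries. HLA-G, a further nonclassical heavy chain, was at most 0.741 CPM in FaDu and was not tested there. In Cal27 AfaR it rose by 1.19 (adjusted p = 0.0478), from 1.11 and 1.23 to 3.24 and 2.09 CPM.

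Of 11 factors besides NLRC5 that act on class I promoters, 1 rose in FaDu AfaR, 0 passed in FaDu ErlR, 2 rose in Cal27 AfaR, and 2 rose and 3 fell in Cal27 ErlR, so that the rises in the AfaR models were near the shares over all genes. RFX5, a subunit of the RFX complex, rose by 0.66 in FaDu AfaR (adjusted p = 0.0171) and by 0.87 in Cal27 AfaR (adjusted p = 0.00674), and had -0.58 in FaDu ErlR (adjusted p = 0.0604) and -0.42 in Cal27 ErlR (adjusted p = 0.143). In Cal27 AfaR, IRF2 rose as well, by 0.55. IRF1, an activator that binds ISREs, fell by 1.26 in Cal27 ErlR (adjusted p = 0.00439), from 102.3 and 143.2 to 40.4 and 63.6 CPM, and did not pass in the other models (0.49 and -0.28 in AfaR and ErlR cells of FaDu, -0.54 in Cal27 AfaR). Of 12 genes of interferon receptors and signaling, 1 rose in FaDu AfaR, 0 passed in FaDu ErlR, 4 rose and 1 fell in Cal27 AfaR, and 1 rose and 3 fell in Cal27 ErlR. In FaDu AfaR this share of rises was below that over all genes (10.4%). In Cal27 AfaR the share of rises was above that over all genes (19.5%) and the share of falls below it (18.2%). Taken without direction, the 5 of 12 that passed there were near the 37.6% over all genes. IRF9, which binds ISREs in a complex with STAT2, rose by 2.20 in Cal27 AfaR, from only 0.524 and 0.758 to 3.67 and 2.26 CPM. STAT2 rose by 0.72 in FaDu AfaR, and IFNGR1, a chain of the interferon gamma receptor, fell by 1.16 in Cal27 ErlR.

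Interferon-stimulated genes outside antigen presentation, 17 tested, rose in 8 cases in FaDu AfaR and in 1 in FaDu ErlR, and fell in 0 in each. Of the 17, 15 rose and 0 fell in the AfaR cells of Cal27, while 2 rose and 6 fell in its ErlR cells. In FaDu AfaR the largest changes were those of IFI27 (5.71), OAS2 (3.45) and XAF1 (3.31), and replicate 2 had the higher value for 16 of the 17, with 18.9 and 82.6 CPM of OAS2. XAF1 was low in FaDu, at 0.340 and 0.572 CPM in parental and 1.31 and 7.90 in AfaR libraries. In Cal27 AfaR the largest changes were IFI44L (6.28), IFI6 (4.89) and IFIT1 (4.42), in the libraries in which PSMB8 and PSMB9 did not pass. In Cal27 ErlR, GBP2 fell by 3.86 and GBP1 by 2.20, while IFI27 rose by 1.51 (adjusted p = 0.0141). GBP1 had 121.6 and 148.4 CPM in Cal27 parental, 178.4 and 197.6 in AfaR and 28.0 and 31.8 in ErlR libraries.

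**Figure D4:**
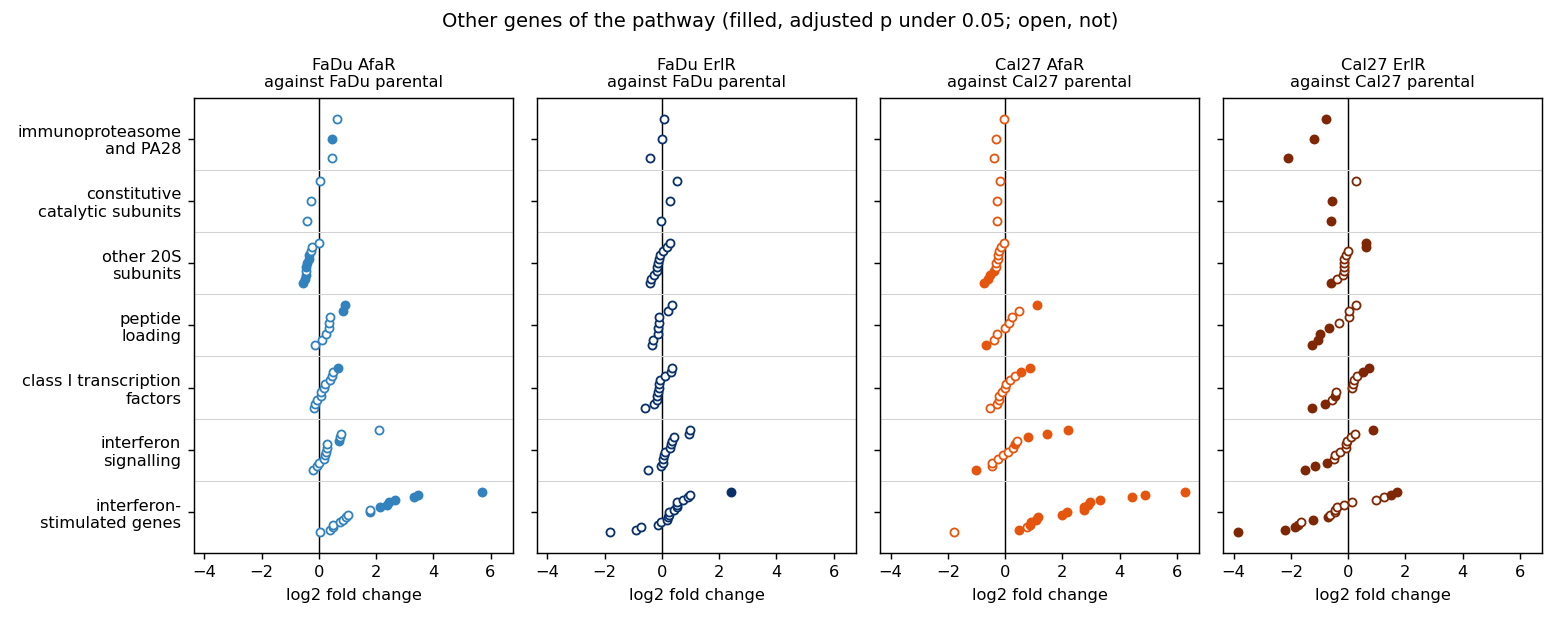
Log2 fold changes of the other genes of the pathway, without the 9 genes, by list (rows) and comparison (panels), spread within a row in order of their value. Filled points passed at an adjusted p under 0.05. The interferon-stimulated genes reach 6.28 in Cal27 AfaR, and the genes of the immunoproteasome and PA28 are filled below 0 in Cal27 ErlR.

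The 7 genes on chromosome 6 sit among other genes of the MHC region. Of the other genes between 29 and 34 Mb, 119 were tested in FaDu and 139 in Cal27. In the FaDu models 6 rose and 3 fell with AfaR and 0 rose and 1 fell with ErlR. Over all genes 10.4% rose and 7.49% fell with AfaR, and 2.58% rose and 1.60% fell with ErlR. Each of these FaDu counts was thus below the share over all genes. In the Cal27 models 38 rose and 5 fell with AfaR and 11 rose and 28 fell with ErlR. Over all genes 19.5% rose and 18.2% fell with AfaR, and 12.3% rose and 15.3% fell with ErlR. The Cal27 rises with AfaR and falls with ErlR were thus above the shares over all genes. The falls with AfaR and rises with ErlR were below them. Their median log2 fold changes were 0.06 and -0.08 (FaDu) and 0.26 and -0.19 (Cal27), each nearer to 0 than the median of the 9 genes. B2M and NLRC5, which lie on other chromosomes, had log2 fold changes of the same sign as HLA-B in FaDu AfaR, Cal27 AfaR and Cal27 ErlR.

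Across the 12 libraries, with each line centered on its mean, pairs of the 9 genes correlated between r = 0.27 (HLA-E and PSMB9) and 0.97 (36 pairs, log2 CPM). HLA-E had the weakest relations to the peptide supply genes, with 0.35 to TAP1 and 0.45 to PSMB8. The points share their libraries and 2 parental groups, and the values are given as a description. The 5 genes whose pattern was most like the average of the 9, among 10549 compared, were TMEM254 (r = 0.98), C1S, a protease of the complement pathway (0.97), H6PD (0.97), DGLUCY (0.97) and EVI5L (0.97). C1S rose by 1.72 in FaDu AfaR and by 1.56 in Cal27 AfaR and fell by 2.07 in Cal27 ErlR, while TMEM254 passed in none of the 4 comparisons by edgeR (0.42, 0.02, 0.21 and -0.49).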

How the data were processed

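Poly(A) RNA with ERCC spike-ins was sequenced in 12 libraries, 2 per group. Per the submitters' processing notes, reads were trimmed with Trimmomatic 0.36, aligned with STAR 2.5.2b to GRCh38 and counted with featureCounts of Subread 1.5.2; strand and multimapping settings are not given in the sources used here. The authors deposited raw counts per gene, which were the values used. Their tables of size-factor normalized counts, with columns of their own comparisons, were not used. Spike-ins (3.86% to 5.82% of counts) were kept out of library sizes. Replicates of each group differed by more than sampling noise and were all kept as separate samples.

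Each line was fitted with edgeR 4.0.16 in R 4.3.3 (TMM, filterByExpr, quasi-likelihood test, 3 residual degrees of freedom, Benjamini-Hochberg adjustment over all genes tested), and interactions and the parental lines over all 12 libraries (6 degrees of freedom). The fits against parental cells were tested on simulated data with known changes. Changes of 1 on the log2 scale were recovered in 51.0% (Cal27 AfaR) to 67.0% (FaDu AfaR) of cases. Those of 2 were recovered in 84.7% (Cal27 ErlR) to 90.9% (FaDu AfaR). For FaDu ErlR the shares were 56.7% and 87.5%, so real changes of these sizes can be missed. Biological variation between replicates (edgeR's common coefficient) was 14.5% for FaDu and 15.3% for Cal27. Symbols came from GENCODE (56948 of 58051 identifiers matched). Likeness used log2(CPM + 0.5) of genes with at least 5 CPM on average, centered per line. Motifs were searched on both strands of RefSeq promoters.

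The 9 genes and the lists, which were written from memory, were chosen with earlier results of these data known. Genes named beside the 9 are PSMB5, PSMB6, PSMB7, PSMB10, TAP2, TAPBP, IRF1, RFX5, HLA-G, the 3 passing genes with the largest change of each list and comparison, and the 5 most alike; single further genes named to complete a sentence were chosen after their values were seen, and 1 gene of this rule and 1 marker are not reported here. The alternatives tried were DESeq2 1.42.0, RLE, upper-quartile and ERCC scaling, other filters, fits of 4 or 12 libraries, a replicate block, summing rows of one symbol, other thresholds and leaving out each library.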

Additional observations from a re-analysis of the deposited data

Results flagged for a closer look

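Of the 9 genes, 4 responded differently in the AfaR models of the 2 lines and 7 in the ErlR models, by interaction terms over 12 libraries with an adjusted p under 0.05 from edgeR, where 18.6% of all genes passed for AfaR and likewise 18.6% for ErlR. All values are the log2 change in FaDu minus that in Cal27. For AfaR they were 2.04 for PSMB9, 0.94 for PSMB8, 0.94 for TAP1 and -0.73 for HLA-E, so that the genes of peptide supply differed in one direction and a nonclassical heavy chain in the other. For ErlR they were 2.19 for HLA-B, 1.96 for HLA-F, 1.53 for PSMB9, 1.32 for NLRC5, 1.20 for PSMB8, 1.05 for HLA-C and 0.67 for HLA-E, all with the lower value in Cal27. No group had the 4 libraries needed to look for single outlying samples.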

How the results depend on the processing

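Of 1575 recomputed values of single genes, 1409 kept their direction and side of the threshold, 90 lost and 47 gained the call, and 29 changed sign, each of them a value that had not passed. RLE scaling and summing rows of one symbol changed no call. Counts of passing genes, with each library left out, ranged from 1 to 7 in FaDu AfaR (6 with all), 0 to 1 in FaDu ErlR (0), 0 to 6 for FaDu AfaR against ErlR (3), 3 to 6 in Cal27 AfaR (5), 4 to 8 in Cal27 ErlR (8), 9 to 9 for Cal27 AfaR against ErlR (9), 1 to 4 (4) and 4 to 7 (7) for the AfaR and ErlR interactions, and 8 to 8 for the parental lines (8). Requiring a log2 fold change over 1 gave 3, 2 and 5 genes in FaDu AfaR, Cal27 AfaR and Cal27 ErlR and 1 in the AfaR interaction. In FaDu ErlR, 5 passed with ERCC scaling, 2 without a filter and 3 by unadjusted p, and FaDu AfaR against ErlR gave 5 without a filter and 5 by unadjusted p. Shares over all genes under these settings are not given, and the cause of these moves was not tested.

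Signs changed in FaDu ErlR for B2M without a filter (0.00) and PSMB9 with ERCC scaling (0.51) or a replicate block (0.02), in FaDu AfaR against ErlR for HLA-C with ERCC scaling (-0.14), in the AfaR interaction for HLA-F with upper-quartile (0.02) or ERCC scaling (0.16) or no filter (0.02), and between parental lines for HLA-E with ERCC scaling (0.31). Leaving out libraries gave, in FaDu ErlR, -0.11 to 0.13 for B2M, -0.16 to 0.38 for TAP1, -0.12 to 0.29 for PSMB8, -0.65 to 0.44 for PSMB9 and -0.13 to 0.26 for NLRC5. It gave -0.05 to 1.17 for HLA-F in FaDu AfaR against ErlR, and in the AfaR interaction -0.20 to 0.72 for HLA-B, -0.74 to 0.48 for HLA-F, -0.11 to 0.23 for B2M and -0.35 to 0.05 for NLRC5. ERCC scaling moved the median of all genes by 0.18 in FaDu AfaR, 0.49 in FaDu ErlR, -0.29 between these and 0.62 between parental lines. Over all genes, deviations of same-numbered replicates correlated at 0.14, -0.10 and -0.10 in FaDu and -0.22, 0.11 and -0.05 in Cal27. With 1 difference per group this cannot show whether the numbers pair libraries. Of the 17 interferon-stimulated genes, 16 were higher in replicate 2 of FaDu parental and of FaDu AfaR cells, and 17 in replicate 1 of FaDu ErlR. For the 9 genes, 7, 9 and 2 were higher in replicate 2 of these groups. With a replicate block, 5 genes passed in FaDu AfaR, without B2M, and 2 in FaDu AfaR against ErlR, without PSMB8, and no other call changed. With 2 libraries per group changes can be missed, also those above 1 on the log2 scale.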

Other observations

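Class I-like proteins and ligands of the NKG2D receptor, read by natural killer and other lymphocytes and outside the 9 genes, had 9 genes tested in FaDu and 8 in Cal27. In FaDu AfaR 3 rose and 0 fell, beside 10.4% and 7.49% of all genes. ULBP1, an NKG2D ligand, rose by 1.74 (adjusted p = 0.0190), FCGRT, the neonatal Fc receptor, by 1.36 (0.0116) and MR1, which presents microbial metabolites, by 0.83 (0.0483). In Cal27 AfaR 4 rose and 1 fell, beside 19.5% and 18.2% of all genes. ULBP1 rose by 1.79 (0.00760), FCGRT by 1.42 (0.00566), MR1 by 1.34 (0.00209) and ULBP3 by 0.87 (0.0461), and MICA, another NKG2D ligand, fell by 0.54 (0.0121). In Cal27 ErlR 0 rose and 3 fell, beside 12.3% and 15.3% of all genes. ULBP1 fell by 2.25 (0.0146), FCGRT by 1.42 (0.0119) and HFE, an iron regulator that pairs with B2M, by 1.31 (0.00439), by edgeR's quasi-likelihood test adjusted over all genes. ULBP1 was low there, at 1.63 and 1.34 CPM in Cal27 parental and 0.128 and 0.489 in ErlR libraries. In FaDu ErlR 0 passed.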
